A study of Mus musculus with 6 samples.

Results

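The suppressor of cytokine signalling (SOCS) family comprises the genes Socs1 to Socs7 and Cish, and its transcripts were followed in mouse liver 1 h after interleukin-6 (IL-6). Its members were taken as every array probe set to which the platform annotation gives one of these 8 symbols as its only gene symbol. A probe set pools probes that the array carries against 1 or more transcripts of a gene. This gave 12 of the 35556 probe sets: 1 each for Cish, Socs1, Socs4, Socs5 and Socs7, 2 each for Socs2 and Socs3, and 3 for Socs6. Male C57BL6 mice, an inbred laboratory strain, were 10 weeks old. All had been fasted for 16 h before they received saline or 100 ng of IL-6 per mouse into the peritoneal cavity, and whole liver was taken after 1 h. The 6 arrays held 3 saline and 3 IL-6 samples. The labels call them separate samples but do not say that each came from its own animal, so the p-values reflect sample-to-sample spread, which may be technical.

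Cytokines such as IL-6 bind a receptor whose chains carry Janus kinases (JAKs), and the kinases activate STAT transcription factors. SOCS genes are themselves transcribed when STATs are active, and their proteins switch the signal off, which makes them a classical negative feedback loop. Each protein has an SH2 domain, which binds phosphorylated tyrosine, and a SOCS box, which recruits elongins and a cullin to an E3 ubiquitin ligase. In liver, SOCS3 is known as the brake on IL-6 signalling through gp130, and CIS (encoded by Cish) and SOCS2 as brakes on growth hormone signalling through STAT5.

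STAT dimers bind the palindrome TTCNNNGAA, and DNA near the annotated start of some SOCS genes is shown here. For Socs3 and Socs1 it is the 250 bases before the start, and for Cish 30 bases across it. Whether these letters bear on the response of the members was not tested. Of the 8 genes, Socs1, Socs3, Socs4 and Cish had an entry in the RefSeq promoter table (GRCm38.p6), whose windows run from 250 bases before the start to 50 after it. Each sequence is given 5′ to 3′ on the gene's own strand, and capitals mark TTCNNNGAA in Socs3 and Cish and, in Socs1, GAAA repeated after 2 bases, a core of interferon response elements.
Socs3, chr11:117969367-117969616, minus strand: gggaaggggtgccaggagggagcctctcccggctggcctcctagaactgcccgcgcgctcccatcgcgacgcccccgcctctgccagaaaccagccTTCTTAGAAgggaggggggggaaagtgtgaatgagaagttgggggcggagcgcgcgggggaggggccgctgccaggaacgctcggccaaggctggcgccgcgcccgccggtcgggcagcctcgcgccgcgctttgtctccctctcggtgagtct
Cish, chr9:107296649-107296678, plus strand: ccgcccagttTTCCTGGAAagTTCTTGGAA
Socs1, chr16:10785537-10785786, minus strand: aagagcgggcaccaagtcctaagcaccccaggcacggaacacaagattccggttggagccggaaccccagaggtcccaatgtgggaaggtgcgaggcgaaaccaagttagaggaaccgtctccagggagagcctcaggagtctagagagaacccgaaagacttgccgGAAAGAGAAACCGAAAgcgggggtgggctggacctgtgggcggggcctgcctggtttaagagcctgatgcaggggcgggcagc

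The Socs3 window held 1 TTCNNNGAA, at bases -154 to -146 from the annotated start. The Cish window held 2, at bases 1 to 9 and 12 to 20, counted from 1 at the annotated start, and none lay in the 250 bases before it. Among 32851 windows of the table, 8.30% held at least 1 such match and 0.457% held 2 or more. The Socs1 window held 2 overlapping matches to GAAA repeated after 2 bases, at bases -83 to -74 and -77 to -68, a motif found in 3.44% of windows on either strand. The Socs1 and Socs4 windows held no TTCNNNGAA, and none of the 4 windows held TTC and GAA 4 bases apart, which 6.95% of windows carried. These matches describe letters in these windows and show no binding.

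Levels are log2 values made by the submitters with RMA, so a difference of 1 is a 2-fold change. In the limma fit over 21789 probe sets with 1 symbol, 4 of the 12 members rose after IL-6 and 0 fell at an adjusted p under 0.05. They belong to 3 of the 8 genes, Socs3, Cish and Socs2. Over all 21789 probe sets, 0.353% rose and 0.0275% fell by the same rule, 0.381% in all. All 3 IL-6 values lay above all 3 saline values in 5 of the 12 members, compared with 6.16% of all probe sets, and in 0 members all lay below, compared with 5.33%. The median difference of the 12 was 0.10, against 0.004 over all probe sets. When every probe set of the table was tested, those without a single symbol included, 1 member kept its call, Socs3 probe set 10393449. Without saline replicate 3, 2 of the 12 were called, both of them Socs3.

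**Figure D1:**
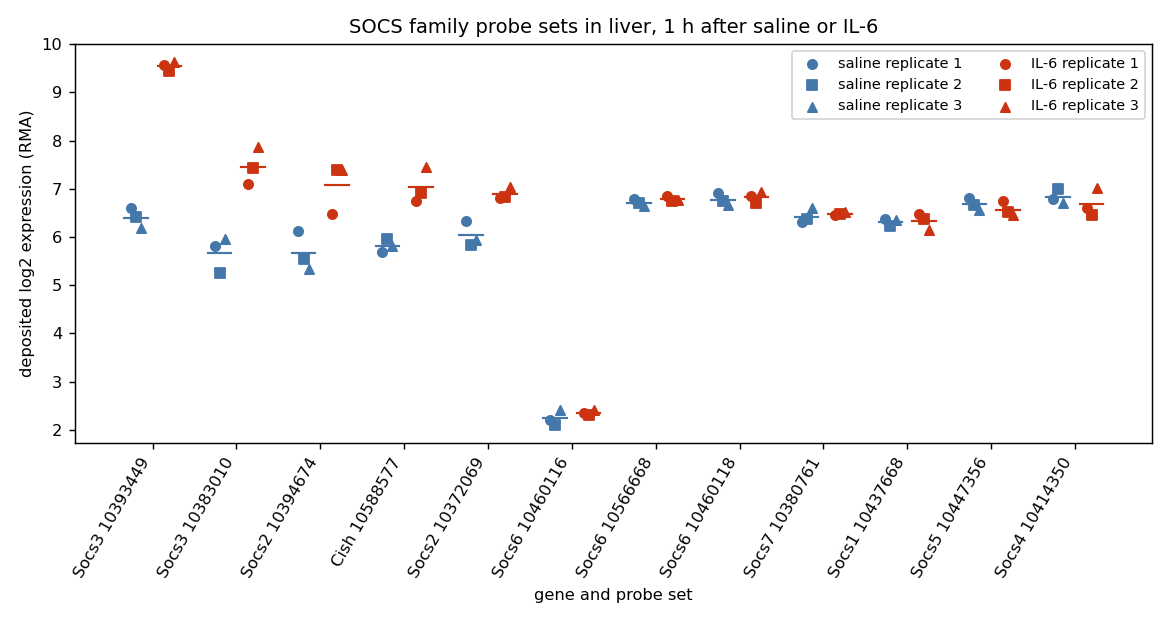
Deposited log2 expression of the 12 SOCS family probe sets in each of the 3 saline (blue) and 3 IL-6 (red) arrays, with marker shape for the replicate number and a line at each group mean. The groups are apart in both Socs3, both Socs2 and the Cish probe sets and overlap in the other 7.

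Socs3, the inhibitor that binds gp130 and the JAKs, had the largest difference of the family. Its probe set 10393449 read 6.61, 6.42 and 6.18 in saline replicates 1 to 3 and 9.57, 9.45 and 9.63 in IL-6 replicates 1 to 3. The gap between the groups was many times the spread within either, and the IL-6 arrays lay closer together (SD 0.09, n = 3) than the saline arrays (SD 0.22, n = 3). The rise was 3.15 ± 0.11 on the log2 scale (standard error; limma adjusted p = 1.79e-06), or 8.86-fold with a 95% interval of 7.45 to 10.5, and it ranked 5 among all 21789 differences. Without saline replicate 2 and IL-6 replicate 3, which the second principal component of these 21789 probe sets places apart from the other arrays, the difference was 3.12.

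The other Socs3 probe set, 10383010, rose less. It read 5.81, 5.25 and 5.95 after saline and 7.10, 7.42 and 7.86 after IL-6, again with no overlap. The difference was 1.79 ± 0.21, or 3.45-fold (limma adjusted p = 0.00714). The platform table ties it to a single accession, and it ties 10393449 to 3. The gap between the rises of the 2 probe sets was 1.36, and the per-array gaps of the IL-6 samples did not overlap those of the saline samples (exact permutation p = 0.1, two-sided, the smallest that 3 against 3 arrays allow). The gap was 1.74 without saline replicate 2 and IL-6 replicate 3. In the numbering of the platform table the 4 neighbours of 10393449 (Tk1, Tha1, Dnah17 and Usp36) lie on the minus strand of chromosome 11, as Socs3 does, whereas of the 4 neighbours of 10383010 the 2 whose strand was known here, Birc5 and Pgs1, lie on the plus strand. Whether 10383010 measures Socs3 was not tested, and the probe sets' own positions were not used here.

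Cish, whose CIS protein competes for STAT5 docking sites on receptors, rose 2.33-fold. Its values were 5.69, 5.95 and 5.81 after saline and 6.75, 6.90 and 7.46 after IL-6. All IL-6 arrays were above all saline arrays, and replicate 3 stood higher than the other 2. The difference was 1.22 ± 0.16 (limma adjusted p = 0.0141), and the 95% interval of the fold was 1.80 to 3.01. The call was lost without saline replicate 1 (limma adjusted p = 0.0605) or saline replicate 3 (0.0649), with differences of 1.16 and 1.22.

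Socs2, a regulator of growth hormone signalling, gave probe sets with different outcomes. Probe set 10372069 read 6.32, 5.82 and 5.95 after saline and 6.80, 6.83 and 7.04 after IL-6. The lowest IL-6 array was above the highest saline array, saline replicate 1. The rise was 0.86 ± 0.13, or 1.82-fold (limma adjusted p = 0.0265), and leaving out any array other than saline replicate 1 ended the call (limma adjusted p from 0.0933 to 0.151). Probe set 10394674 read 6.13, 5.55 and 5.33 after saline and 6.47, 7.38 and 7.38 after IL-6. Its lowest IL-6 array, replicate 1, lay nearest to its highest saline array, also replicate 1, and its spread was wider (SD 0.41 and 0.53, n = 3 in each group). Its difference of 1.41 ± 0.26 was larger than that of the called probe set and did not pass the threshold (limma adjusted p = 0.0840). Without IL-6 replicate 1 it was 1.71 (limma adjusted p = 0.0213), and without saline replicate 1 it was 1.64 (0.0487). The 2 differences were 0.55 apart, within the spread of the arrays (exact permutation p = 0.3, two-sided). The 4 probe sets numbered next to 10372069 belong to genes of chromosome 10, which carries Socs2, while the 4 next to 10394674 (Nbas, Gm16497, Ntsr2 and E2f6) belong to genes of chromosome 12, and whether 10394674 measures Socs2 was not tested.

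The groups did not overlap in 5 members, as held in either direction for 11.5% of all probe sets. Among the 3 IL-6 arrays, 4 of these 5 were highest in replicate 3 and 4 were lowest in replicate 1. This order was not counted over all probe sets, so it may not be particular to the family. IL-6 replicate 3 also stood apart on the second principal component, and its part in this order was not tested. The called Socs2 probe set had a difference of 0.68 without that array and saline replicate 2, and its call was lost (limma adjusted p = 0.304). Without those arrays Cish had a difference of 1.08 (limma adjusted p = 0.0156) and the other Socs3 probe set 1.38 (0.0156).

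**Figure D2:**
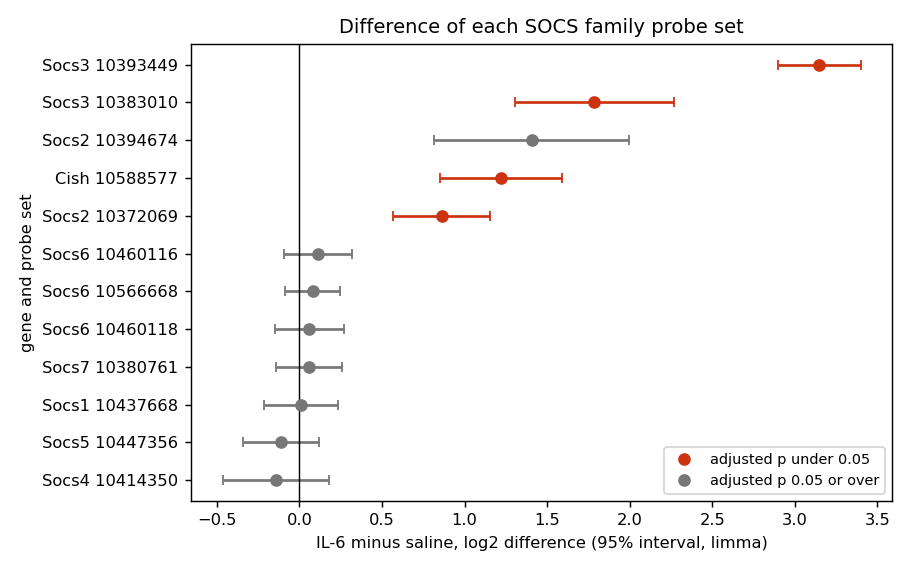
IL-6 minus saline log2 difference of each SOCS family probe set with its 95% interval from limma, 3 arrays per group. Red points passed an adjusted p of 0.05, and the 7 lowest probe sets have intervals that cross 0.

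No probe set of Socs1, Socs4, Socs5, Socs6 or Socs7 passed the test. For these 7 probe sets the differences ran from -0.14 to 0.11, the groups overlapped in each, and the 95% intervals lay between -0.46 and 0.32, that is, between 0.725-fold and 1.25-fold. Each interval lies below that of Cish.

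Socs1 is the close relative of Socs3 that also inhibits JAKs directly and is best known as a brake on interferon signalling. Its values were 6.38, 6.23 and 6.35 after saline and 6.48, 6.37 and 6.14 after IL-6. The difference was 0.01 ± 0.10, with a 95% interval of -0.21 to 0.23 (limma adjusted p = 0.993). The highest and the lowest of the 6 values were both IL-6 arrays.

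Socs4 and Socs5, linked to epidermal growth factor receptor signalling, had the lowest differences of the family. Socs4 read 6.79, 6.99 and 6.70 after saline and 6.60, 6.45 and 7.02 after IL-6, a difference of -0.14 ± 0.14 (limma adjusted p = 0.941). Socs5 read 6.82, 6.67 and 6.55 after saline and 6.74, 6.51 and 6.45 after IL-6, a difference of -0.11 ± 0.10 (limma adjusted p = 0.930). In both genes the groups overlapped, and Socs4 spread more after IL-6 (SD 0.30) than after saline (SD 0.15).

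Socs6 and Socs7 encode members with long N-terminal regions that have been linked to insulin receptor signalling. Socs6 probe set 10460118 read 6.91, 6.74 and 6.66 after saline and 6.85, 6.71 and 6.93 after IL-6, a difference of 0.06 ± 0.09 (limma adjusted p = 0.961). Probe set 10566668 of the same gene had 6.71 ± 0.06 after saline and 6.79 ± 0.06 after IL-6 (SD, n = 3 each), a difference of 0.08 ± 0.07; its neighbours in the numbering are olfactory receptor genes of chromosome 7, while Socs6 is on chromosome 18. The third, 10460116, lay at 2.24 ± 0.15 and 2.35 ± 0.05, at percentile 1.6 of the mean levels of all probe sets. Socs7 had 6.42 ± 0.15 after saline and 6.48 ± 0.03 after IL-6, a difference of 0.06 ± 0.09 (limma adjusted p = 0.961).

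In the order of differences, Socs3 10393449 came first, then Socs3 10383010, Socs2 10394674, Cish and Socs2 10372069, followed by the 7 others. Of the 11 pairs of neighbours, 2 had per-array gaps that did not overlap between groups, the 2 Socs3 probe sets and the step of 0.75 from Socs2 10372069 to Socs6 10460116 (exact permutation p = 0.1 for each, 0.55 adjusted over the 11 pairs). The other neighbours did not differ beyond their spread. The order within each neighbouring pair from Socs3 10383010 down to Socs2 10372069 is therefore not settled (exact permutation p from 0.3 to 0.5). Socs3 10383010 was not tested against Cish or Socs2 10372069. The limma interval of Socs3 10383010 (1.31 to 2.27) lay above that of Socs2 10372069 (0.57 to 1.15) and overlapped that of Cish (0.85 to 1.59).

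The genes with the most similar profiles were found from the root mean square distance over the 6 arrays, each profile taken relative to its own saline mean. Nearest to Socs3 10393449 were Cxcl1, a neutrophil-attracting chemokine, at a distance of 0.09, Steap4, a metalloreductase, at 0.11 and the stress gene Gadd45a at 0.37. Cxcl1 had a difference of 3.22 and Steap4 of 3.23. Nearest to Cish were the serum amyloid gene Saa4 (0.18), the mRNA decay factor gene Zfp36l1 (0.20) and Bcl3 (0.21). Nearest to Socs2 10372069 were Foxq1 (0.08), Fv1 (0.08) and Gdap10 (0.09), and nearest to Socs3 10383010 were Tiparp (0.32), Osgin1 (0.32) and Pim1 (0.33). This likeness rests mainly on a similar size of difference and is a description over 6 arrays.

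**Figure D3:**
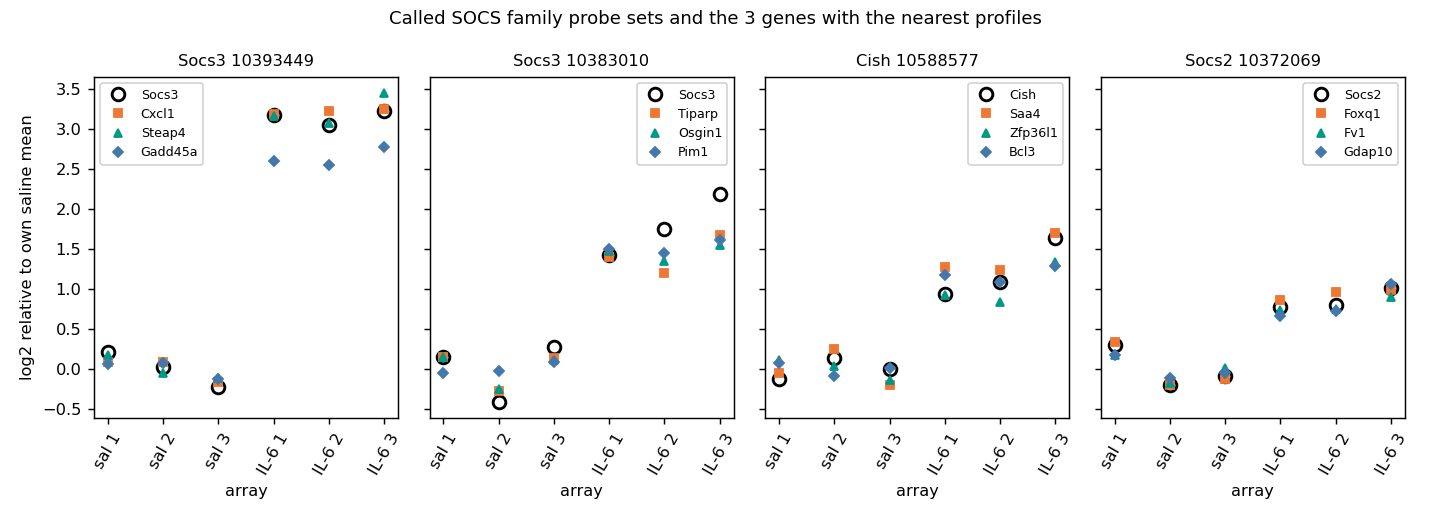
Log2 value in each array relative to the gene's own saline mean, for the 4 called SOCS family probe sets (open circles) and the 3 genes nearest to each (coloured). Cxcl1 and Steap4 lie near the Socs3 10393449 values in the IL-6 arrays, at 3.07 to 3.45.

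The pathway around the family was described by 8 lists of 123 genes in all, each gene by its probe set with the highest mean. Upstream, 0 of 13 measured genes of IL-6 family ligands, receptors and kinases were called in limma, 0.396% being the share over all 19938 genes (0.366% higher), with a median difference of 0.06. The receptor chain genes Il6ra (-0.20 ± 0.10) and Il6st (0.29 ± 0.08), which encodes gp130, did not pass (limma adjusted p = 0.805 and 0.371), nor did the kinase genes Jak1 (0.04 ± 0.07) and Jak2 (0.09 ± 0.08). Of 6 STAT genes 0 were called, and Stat3 missed the threshold at 0.52 ± 0.09 (limma adjusted p = 0.0535). At an unadjusted limma p under 0.05, which 6.58% of all probe sets reached, 1 of the 13 upstream genes (Il6st) and 4 of the 6 STAT genes passed.

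Downstream, 10 of 28 STAT3 target genes rose and 0 fell, where 0.366% of all genes rose, and the median difference was 0.40. The list was chosen with earlier results of these data known, so its counts are a description and no independent test. In 17 of the 28 all IL-6 values lay above all saline values, as in 6.16% of all probe sets. The largest were the serum amyloid genes Saa2 (4.33 ± 0.18) and Saa1 (3.84 ± 0.28), followed by Lcn2, which binds iron-siderophore complexes, at 1.72 ± 0.22 and the kinase gene Pim1 at 1.52 ± 0.08. The difference of Socs3 10393449 lay between those of Saa1 and Lcn2.

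In the list of other JAK-STAT brakes and regulators, no gene was called. Of its 15 genes, which include phosphatase, PIAS and adaptor genes, 0 passed in limma, where 0.396% of all genes passed. At an unadjusted limma p under 0.05, which 6.58% of all probe sets reached, 2 passed. The list had a median difference of 0.05. Differences ran from -0.46 ± 0.13 in Dusp1, a MAP kinase phosphatase gene, to 0.32 ± 0.09 in Ptpn2, a phosphatase gene that acts on JAKs and STATs (limma adjusted p = 0.430 and 0.423). Both were picked out after their values were seen, as the ends of the list.

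The partners through which a SOCS box acts were also not called. Of 9 measured genes 0 passed in limma, also 0 at an unadjusted p under 0.05, among them the elongins Elob (0.13 ± 0.07) and Eloc (-0.02 ± 0.09), the cullin Cul5 (-0.01 ± 0.08) and the RING protein gene Rnf7 (-0.13 ± 0.07). Of 27 genes for other SOCS box proteins 0 were called in limma and 2 had an unadjusted p under 0.05. Over the whole array 0.396% of genes were called, and 6.58% of probe sets reached that unadjusted p. Counts of 0 in lists this short therefore say little about them. Wsb1, singled out after its value was seen, was 1.28 ± 0.22 higher and just missed the threshold (limma adjusted p = 0.0527).

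Of 19 measured receptor and adaptor genes that SOCS proteins act on, 1 rose, the insulin receptor adaptor gene Irs2 (0.94 ± 0.13, limma adjusted p = 0.0164). By the same rule 0.366% of all genes rose. The growth hormone receptor gene Ghr had 0.01 ± 0.08. Of 8 measured growth hormone targets of STAT5, 1 rose, the transcription factor gene Onecut1 (0.64 ± 0.10, limma adjusted p = 0.0362), while the members Cish and Socs2, which growth hormone also raises in liver, are counted with the family.

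**Figure D4:**
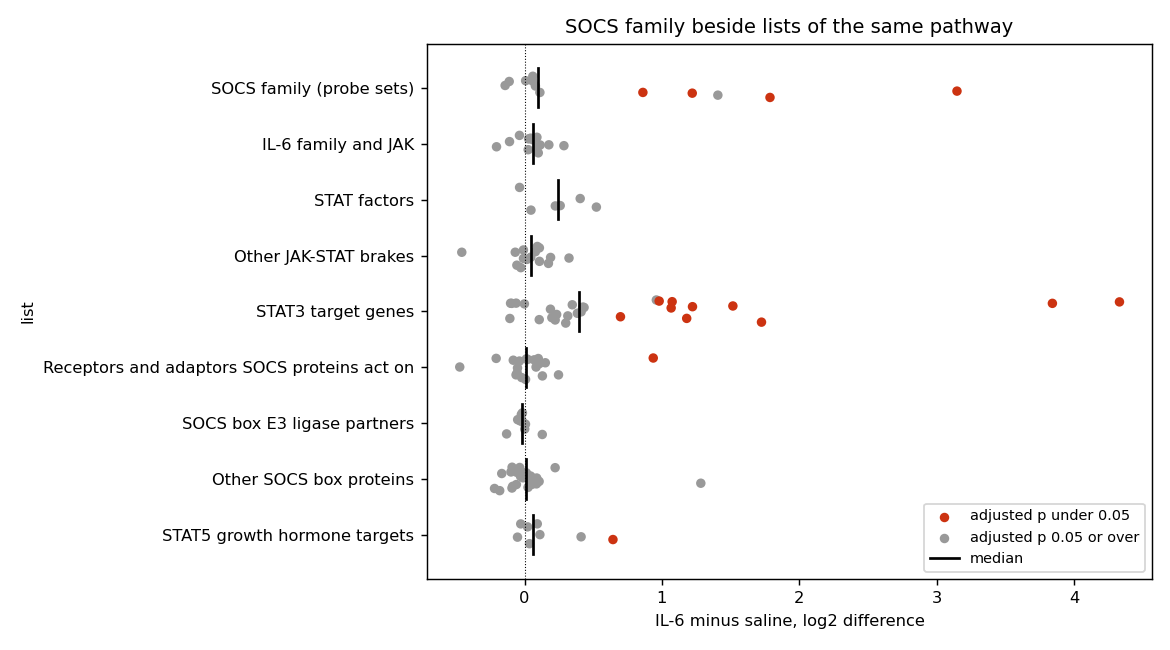
IL-6 minus saline log2 difference of each gene in 8 pathway lists and of the 12 SOCS family probe sets, with the list median as a bar and red for an adjusted p under 0.05. STAT3 target genes and the SOCS family hold the points above 0.7 apart from Irs2 and Wsb1.

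Whole liver mixes cell types, and in such samples a change in the number of cells of a type and in their RNA per cell cannot be told apart. Among the 79 measured genes of 8 marker lists, 1 was called, S100a8, a neutrophil gene, at percentile 15.4 of the mean levels (0.65 ± 0.09, limma adjusted p = 0.0228). Of all genes, 0.396% were called. The 11 measured hepatocyte markers averaged 12.35 to 12.43 in saline and 12.40 to 12.45 in IL-6 arrays, 0 of them lay below the 25th percentile of mean levels, and Alb had a difference of 0.03 ± 0.07. The 12 Kupffer cell and macrophage markers averaged 6.38 to 6.55 in saline and 6.49 to 6.76 in IL-6 arrays, overlapping. Of these 12, 11 had a positive difference (median 0.09), as had 51.5% of all probe sets. An unadjusted limma p under 0.05 was reached by 2 of them (Timd4 and C1qb) and by 6.58% of all probe sets. Of the 12, 0 were called, and their part in the results was not tested. The 10 neutrophil markers averaged 4.20 to 4.30 and 4.14 to 4.41, overlapping too. Of these 10, 5 had a positive difference. An unadjusted limma p under 0.05 was reached by 2, S100a8, which was higher, and Ly6g, which was lower (-0.27 ± 0.10). The difference of S100a9 was -0.01 ± 0.07. The group ranges also overlapped for the T and NK cell (4.41 to 4.51 after saline, 4.34 to 4.48 after IL-6), B cell (4.22 to 4.35 and 4.27 to 4.31), endothelial (7.55 to 7.60 and 7.50 to 7.68) and stellate cell markers (6.81 to 6.90 and 6.84 to 6.91). The 6 cholangiocyte markers averaged 5.10 to 5.13 after saline and 5.13 to 5.26 after IL-6. Below the 25th percentile of mean levels lay 6 of the 10 neutrophil, 7 of the 12 T and NK cell, 5 of the 8 B cell and 2 of the 6 cholangiocyte markers, so the averages of these lists say little about those cells.

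**Figure D5:**
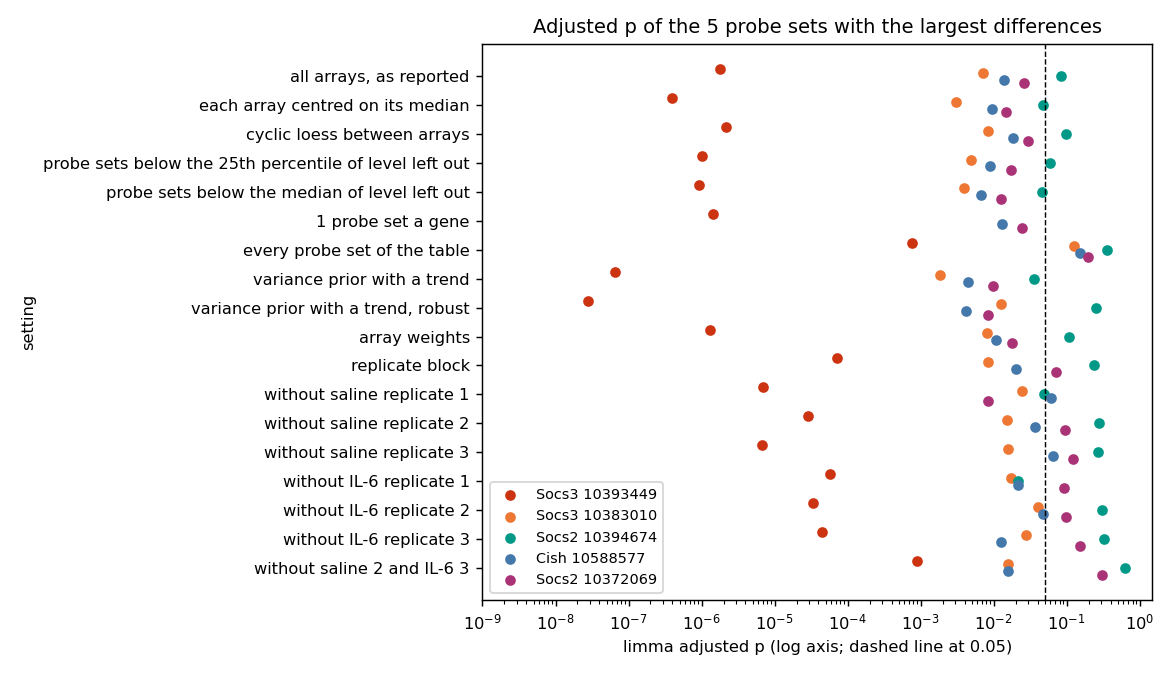
Limma adjusted p on a log axis of the 5 SOCS family probe sets with the largest differences, under the reported setting (top) and 17 others. Socs3 10393449 stays left of the dashed line at 0.05 throughout, at most 0.000886, while Socs2 10372069 is left of it under 9 of the 17.

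Array correlations lay between 0.989 and 0.991 within a group and between 0.987 and 0.990 across groups over all probe sets. Principal components were taken over the 21789 probe sets with 1 symbol. The first, with 31.2% of the variance, placed the saline arrays between -13.0 and -9.57 and the IL-6 arrays between 9.03 and 12.2. The second principal component, with 23.3%, placed saline replicate 2 at -11.5 and IL-6 replicate 3 at -14.5. It placed the other 4 arrays between 2.37 and 9.73.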

How the data were processed

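Liver RNA was hybridised to 1-colour Affymetrix arrays, 3 saline and 3 IL-6. The submitters' processing notes name RMA as the step behind the deposited log2 expression values, 1 per probe set and array. No source used here states its version, settings or build. RMA normalizes the arrays by quantiles and can compress large changes. Array number limits the precision, and background per probe set was not assessed.

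Of 35556 probe sets, 21789 carry exactly 1 symbol in the platform table and were fitted, 1621 carry several and 12146 are unnamed here. The values were used as deposited. IL-6 was compared with saline by limma 3.58.1 (lmFit, eBayes; R 4.3.3), Benjamini-Hochberg adjusted over the 21789, threshold 0.05, two-sided. The fit was also run on data simulated from its own variance model, which cannot show how it behaves where real arrays depart from that model. Single gaps between probe sets used exact permutation tests over arrays. Named genes were the members, the 3 nearest profiles of each called member, the up to 4 largest called genes of each pathway list and 11 fixed pathway genes. Dusp1, Ptpn2, Wsb1 and the marker genes S100a8, S100a9, Ly6g, Alb, Timd4 and C1qb fall outside this rule and were chosen after their values were seen. The members, lists and alternatives were chosen with earlier results of these data known. Figures were drawn with matplotlib 3.10.9.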

Additional observations from a re-analysis of the deposited data

How the results depend on the processing

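Of 17 alternatives, Socs3 10393449 kept its direction and its call in each, with differences from 3.04 to 3.25. In place of 4 called members, 1 was called when every probe set of the table was tested. With it came 5 of the 123 pathway genes in place of 12 and 17 probe sets in place of 83. That setting tests more probe sets and also gave the 4 called members larger standard errors, for Cish 0.19 in place of 0.16. Which of these lost the calls was not tested. Other settings gave more calls. A filter at the median level gave 5 members, 15 pathway genes and 114 probe sets. A variance prior with a trend gave 5 members, 15 pathway genes and 112 probe sets. Leaving out 1 array gave 2 to 4 called members, 10 to 13 pathway genes, 48 to 74 probe sets and 2 to 5 neighbouring pairs without overlap. Without both saline 2 and IL-6 3 there were 35 called probe sets and 5 such pairs; the cause was not tested. With the replicate number as a replicate block, 3 members were called and Socs2 10372069 was not (limma adjusted p = 0.0714); the deviations of same-numbered arrays correlated at 0.07, -0.12 and -0.09, and saline 2 correlated best with IL-6 3 (0.19). The block moved all calls from 83 to 57. Socs1 changed sign on leaving out 1 array (-0.0656 to 0.10), and Socs6 10460118 without both arrays (-0.0051); neither was called. Socs2 10394674 passed with median centring, a filter at the median level and a variance prior with a trend (limma adjusted p from 0.0356 to 0.0472).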

Other observations

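Beyond the family, 11 of 53 other called higher genes with an entry in the promoter table held a TTCNNNGAA in a window (20.8%), as did 9.55% of all 27025 genes of the table. TTC and GAA 4 bases apart were held by 2 of the 53 (3.77%) against 8.01% of all genes, and GAAA repeated after 2 bases by 4 (7.55%) against 3.99%. These shares are a description with no test.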
